A study of Mus musculus with 8 samples.

Results

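The genes described here encode the route from the IL-18 receptor through MyD88 to NF-κB. They were chosen by name, as 43 gene symbols that each had to equal the gene name of a row in the FPKM table, and all 43 were found among its 47493 entries. A mean of at least 1 FPKM (fragments scaled to the length of the transcript and to the depth of the library) over all libraries was reached by 42 of them, and by 12166 genes in all. Irak1bp1, which encodes an IRAK1-binding protein, stayed below that level, with 0.996, 0.852, 1.19 and 0.675 FPKM in the flow-through against 1.04, 0.615, 0.698 and 0.584 FPKM in the enriched libraries, and was not tested.

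IL-18 binds a receptor whose cytoplasmic domains recruit the adaptor MyD88, which gathers IRAK kinases into a complex. IRAKs engage TRAF6, whose ubiquitin chains activate the TAK1 complex and then the IKK complex, and IKK marks IκB proteins for destruction so that NF-κB dimers can enter the nucleus and act on target genes. Several of those targets, such as IκBα and A20, shut the pathway off again, and in CD8+ T cells the same NF-κB subunits are also reached from the T-cell receptor through BCL10 and MALT1 and from TNF-family receptors through TRAF adaptors.

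RNA sequencing was performed on 8 libraries from 4 female C57BL/6 mice aged 6 to 8 weeks at the start, and each mouse gave 1 library of each of 2 fractions. All mice received 200000 B16F10 melanoma cells on day 0, cyclophosphamide at 300 mg/kg on day 3, 2000000 Pmel-1 T cells, which carry a receptor for a melanoma antigen, on day 5, 10000 IU of IL-2 daily for 3 days from day 5, and 200 μg of the anti-CD4 antibody GK1.5 on days 10, 17 and 24. On day 25, endogenous CD8+ T cells, separated from the transferred cells by the absence of Thy1.1, were isolated by beads from inguinal lymph nodes and spleen, and those stained for IL-18Rα and held back by magnetic beads formed the IL-18Rα-hi-enriched fraction. The cells that passed the column formed the flow-through, the control fraction. The fractions therefore share every treatment and differ in a bead step on the protein of Il18r1, and no untreated cells are compared here. Each fraction is a bulk sample, in which fewer cells of a type and less RNA per cell cannot be told apart.

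The separation was visible in Il18r1, the gene of IL-18Rα, which had 22.2, 37.2, 27.7 and 35.3 FPKM in the flow-through against 110.4, 106.6, 110.3 and 116.0 FPKM in the enriched libraries of mice 1 to 4. The difference is set by the selection and checks the labels only. An exact two-sided permutation over the libraries, which leaves out the pairing by mouse, gave p = 0.0286, the smallest that 4 against 4 libraries allow. Estimated depth was 14100000 to 17800000 fragments per library and overlapped between fractions. The fractions also differed in listed marker genes of other cells, whose sums do not count cells. The summed FPKM of 8 CD8 T-cell identity genes was 1280 to 2427 in the flow-through, lowest in mouse 1, and 2403 to 2578 in the enriched libraries. The summed level of 10 dendritic-cell genes was 122 to 313 FPKM in the flow-through against 313 to 847 FPKM in the enriched libraries, 9 NK-cell genes had 213 to 488 and 842 to 1237 FPKM, 12 myeloid genes had 515 to 2699 and 815 to 3621 FPKM, and 9 erythroid genes had 909 to 2822 and 225 to 1542 FPKM. The largest gene of the NK-cell sum was Cd7 (means of 187 and 559 FPKM), while Ncr1 had means of 1.66 and 16.8 FPKM. In the dendritic-cell list, Ccr7 was the largest gene in the flow-through and was lower in the enriched libraries (means of 93.6 and 36.9 FPKM). Of that list 8 genes were called higher and 1 lower. None of these lists had a gene at 0 in all libraries. The flow-through library of mouse 1 was the lowest of its fraction for 34 of 43 members (79.1%), against 43.4% of all genes tested. The part of any of these differences in the values of the pathway genes was not tested.

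At an adjusted p under 0.05 (limma on log2(FPKM + 1), adjusted over all genes), 9 of the 42 members rose in the IL-18Rα-hi-enriched fraction and 1 fell. Over all genes tested the shares were 14.1% higher and 13.7% lower, and 27.8% in either direction, so the members' share of 10 in 42 was near that of any gene. The members that rose were Myd88, Traf3, Traf5, Tab2, Tbk1, Nfkb1, Rel, Nfkbie and Bcl10, and the member that fell was Tab1. Their direction was less even than their number: 31 of 42 members (73.8%) had a positive log2 fold change, against 48% of all genes, and the median was 0.20 beside -0.02 for all genes, but under the T-cell scaling given next 13 of 42 (31%) were positive, against 21.9% of all genes. No values of the fractions overlapped for 14 members on the higher side and for 1 on the lower side, and 16.4% and 15.9% of all genes did the same. With the mouse as a block, 18 members were higher and 5 lower, beside 22.2% and 22.7% of all genes.

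These calls rest on the scale on which libraries are compared. For T-cell scaling, each library was divided by the geometric mean of the 8 T-cell identity genes. The median of all genes then moved to -0.33 and that of the members to -0.14. None of the 10 calls remained, with 0 members higher and 2 lower (Ikbkb and Ikbke) by limma beside 4.46% and 8.92% of all genes. In that scaling 1 member was higher and 6 lower at an unadjusted p under 0.05, beside 894 and 3511 of 12166 genes. The 8 scaling genes were not even between the fractions themselves. All 8 had positive log2 fold changes on the unscaled values, and Zap70 was called (0.64, adjusted p = 0.0263). Their sum was lowest in the flow-through of mouse 1. At an unadjusted p under 0.05 on the unscaled values, 16 members were higher and 2 lower, beside 20% and 21.3% of all genes. Without the flow-through library of mouse 1, 10 members were higher and 3 lower at an adjusted p under 0.05, beside 14.2% and 12.9% of all genes.

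**Figure D1:**
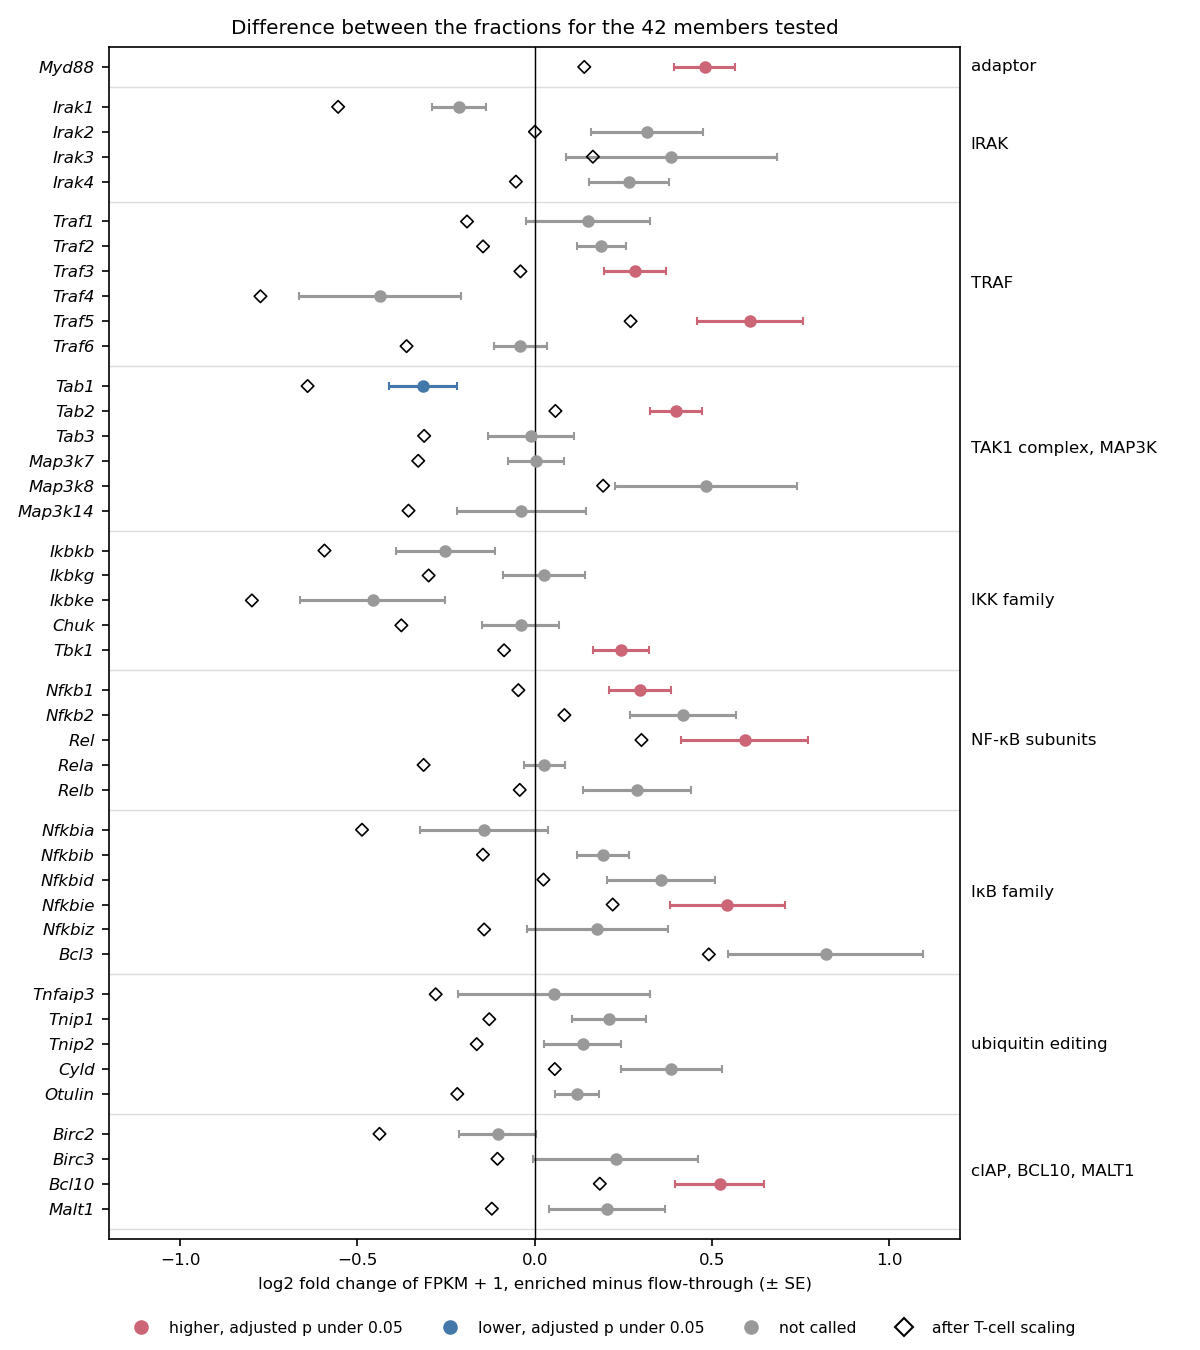
Log2 fold change of FPKM + 1 (enriched minus flow-through, circles, ± SE, 4 libraries per fraction) for the 42 members tested, by role; open diamonds are the same values after division by T-cell identity genes. The largest values belong to Bcl3 (0.82, not called), Traf5 (0.61), Rel (0.59) and Nfkbie (0.54), and the diamonds lie to the left of every circle.

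The adaptor Myd88 (chromosome 9, 119335934 to 119341411, minus strand, mm10) had 36.4, 39.6, 43.8 and 43.1 FPKM in the flow-through against 52.0, 61.3, 55.9 and 59.4 FPKM in the enriched libraries of mice 1 to 4. All 4 enriched libraries stood above all 4 flow-through libraries. The means were 40.7 ± 3.42 and 57.2 ± 4.07 (SD, n = 4), with a log2 fold change of 0.48 ± 0.09 (SE) and an adjusted p of 0.00585. Myd88 was called in 19 of 20 alternative settings, more than any other member, and was lost under T-cell scaling (0.14 ± 0.19, adjusted p = 0.581). Its exons overlap those of Acaa1a, a peroxisomal thiolase on the opposite strand, whose reads cannot be told apart where strand was not used in counting. Acaa1a itself did not pass the test (0.12 ± 0.09, adjusted p = 0.323), and the ratio of Myd88 to Acaa1a was 0.903 ± 0.0696 in the flow-through against 1.16 ± 0.0480 in the enriched libraries, with no overlap.

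The IRAK kinases, which take the signal from MyD88, did not move as a block, and none of the 4 tested passed by limma (1 higher and 1 lower at an unadjusted p under 0.05). Irak1, the kinase handed on to TRAF6, had 51.6, 58.7, 57.1 and 62.0 FPKM in the flow-through against 46.7, 49.2, 49.2 and 51.9 FPKM in the enriched libraries. It was lower in the enriched fraction of all 4 mice, with values that overlapped between fractions (-0.21 ± 0.08, adjusted p = 0.0675, and 0.0262 with the mouse block). Irak4, the kinase that binds MyD88 directly, had 8.64 to 11.7 FPKM in the flow-through against 11.1 to 13.6 FPKM in the enriched libraries (0.27 ± 0.11, adjusted p = 0.109, and 0.0267 with the block). The ratio of Irak4 to Irak1 inside a library is free of the scale between libraries. It was 0.182 ± 0.0144 in the flow-through against 0.258 ± 0.0131 in the enriched libraries, higher in 4 of 4 mice with no overlap. This ratio and those of other members below set a member with a positive log2 fold change over one with a negative one. Their direction therefore follows from values already shown, and they are descriptions without a test. Irak2, a second kinase of the complex, had 5.49 to 8.90 and 7.06 to 10.6 FPKM (0.32 ± 0.16, adjusted p = 0.166), and its highest flow-through value was in mouse 1; without that library the adjusted p was 0.0397. Irak3, the inhibitory member known best from macrophages, was low at 1.17 to 4.02 and 1.73 to 3.96 FPKM. Its highest value in each fraction was in mouse 2, whose libraries also held the most Mpo, a myeloid gene (1394 and 1175 FPKM). Between the fractions, Mpo was lower in the enriched library of 4 of 4 mice, whereas Irak3 was higher in 3 of 4. A link between the 2 genes was not tested. Exons of Irak2, Irak3 and Irak4 overlap genes on the opposite strand.

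Among the TRAF adaptors, Traf5 and Traf3 rose while Traf6, the one that acts directly below IRAK, did not pass. Traf5, which serves TNF-family receptors such as OX40 and CD27, had 22.2, 33.3, 34.3 and 35.3 FPKM in the flow-through against 53.4, 42.5, 46.9 and 47.6 FPKM in the enriched libraries. Mouse 1 had both the lowest and the highest value of the gene, and the fractions did not overlap. Its log2 fold change was 0.61 ± 0.15 (adjusted p = 0.0193), and 0.46 ± 0.08 without the flow-through library of mouse 1 (adjusted p = 0.00702). Its exons overlap a non-coding gene on the opposite strand.

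Traf3, which restrains the non-canonical branch by keeping NIK low, had 9.73, 11.9, 12.3 and 11.3 FPKM against 13.1, 14.5, 14.3 and 13.8 FPKM (0.28 ± 0.09, adjusted p = 0.0435). The gap between the fractions was 0.737 FPKM at its narrowest, and the call was kept in 7 of 20 alternatives. Traf6, the ubiquitin ligase of the IL-1 and IL-18 receptor route, had 10.9, 12.2, 12.3 and 11.8 FPKM against 10.6, 11.9, 11.5 and 11.9 FPKM (-0.04 ± 0.08, adjusted p = 0.717), so its values lay on top of each other. Traf4 had 42.8, 22.2, 36.7 and 26.9 FPKM against 30.3, 18, 24.9 and 19.7 FPKM. It was lower in the enriched fraction of 4 of 4 mice, but its values were spread widely over the mice within each fraction. Traf4 was called only with the mouse block (-0.44 ± 0.23, adjusted p = 0.182 without and 0.00355 with the block). Traf1, itself a known NF-κB target, was the most abundant of the family at 44.2 to 79.4 and 62.1 to 79.7 FPKM (adjusted p = 0.544), and Traf2, a partner of TRAF1 and TRAF3, had 19.9 to 22.5 and 23.1 to 25.4 FPKM with no overlap but an adjusted p of 0.0756.

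**Figure D2:**
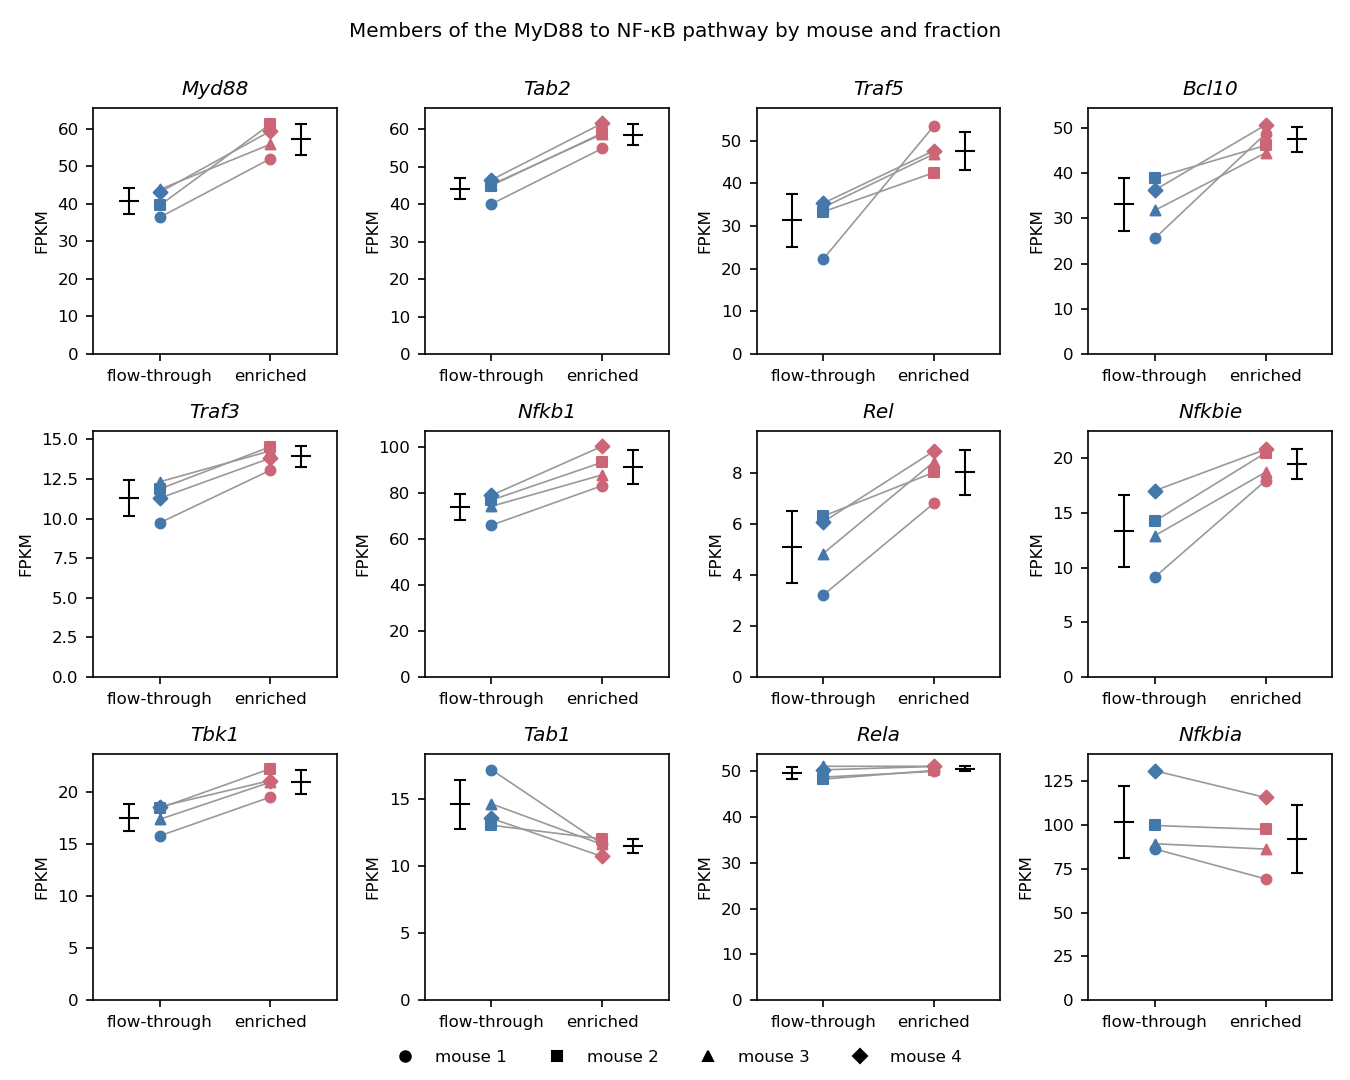
FPKM of 12 members in the flow-through (blue) and enriched (red) library of each of 4 mice, joined by mouse, with mean ± SD beside each fraction; axes start at 0. The 9 members that rose and Tab1, which fell, show no overlap, whereas Rela spans 48.3 to 51.1 FPKM over all libraries and Nfkbia differs more between mice than between fractions.

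In the TAK1 complex the 2 called members moved in opposite directions. Tab2, a subunit that docks TAK1 onto ubiquitin chains, had 40.0, 45.0, 45.2 and 46.5 FPKM in the flow-through against 54.9, 58.9, 58.7 and 61.6 FPKM in the enriched libraries. Every enriched library was above every flow-through library (0.40 ± 0.07, adjusted p = 0.00638), and the call was kept in 18 of 20 alternatives. Tab1, the subunit that switches on the kinase, had 17.2, 13, 14.6 and 13.6 FPKM against 11.6, 12.0, 11.6 and 10.7 FPKM. Its flow-through values were all above its enriched values (-0.31 ± 0.10, adjusted p = 0.0409), although the call was kept in 7 of 20 alternatives only. The ratio of Tab2 to Tab1 within a library was 2.33, 3.45, 3.09 and 3.43 in the flow-through against 4.71, 4.90, 5.06 and 5.75 in the enriched fraction. The kinase itself, Map3k7 (TAK1), had 18.8 to 20.3 and 17.4 to 21.2 FPKM (0.00 ± 0.08, adjusted p = 0.981), and Tab3, a close relative of Tab2, had 4.44 to 6.19 and 4.78 to 6.40 FPKM (-0.01 ± 0.12). Map3k8 (TPL2), which links NF-κB1 to the ERK cascade, had 3.01, 7.5, 6.17 and 8.70 FPKM against 7.28, 10.2, 8.82 and 8.95 FPKM, higher in 4 of 4 mice and called only with the block (0.48 ± 0.26, adjusted p = 0.188 without and 0.0448 with it). Map3k14 (NIK), the kinase of the non-canonical branch, had 8.92 to 17.1 and 10.3 to 13.4 FPKM (adjusted p = 0.894).

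In the IKK family Tbk1 rose, and Ikbke and Ikbkb fell in some settings only. Tbk1, an IKK-related kinase, had 15.8, 18.5, 17.4 and 18.6 FPKM in the flow-through against 19.5, 22.3, 21.0 and 21.1 FPKM in the enriched libraries. The fractions were apart by 0.93 FPKM at the narrowest, and the call was the closest to the threshold (0.24 ± 0.08, adjusted p = 0.0493), kept in 5 of 20 alternatives. Ikbke, the inducible relative of TBK1, had 47.6, 78.0, 71.9 and 98.2 FPKM against 42.8, 56.2, 53.4 and 56.3 FPKM. Each mouse had less in its enriched fraction, and the low flow-through value of mouse 1 lay inside the enriched range. Its log2 fold change of -0.46 ± 0.20 had an adjusted p of 0.126, but 0.0128 with the mouse block, 0.0163 under T-cell scaling (-0.80 ± 0.16) and 0.0113 without the flow-through library of mouse 1 (-0.65 ± 0.14). Ikbkb, the catalytic subunit that phosphorylates IκB, was likewise lower in 4 of 4 mice, with 47.6 to 73.6 FPKM against 44.4 to 57.2 FPKM (-0.25 ± 0.14, adjusted p = 0.207 without the block and 0.0294 with it).

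The other IKK subunits, Chuk (IKKα, 30.1 to 34.0 and 27.2 to 36.3 FPKM) and Ikbkg (NEMO, the regulatory subunit, 12.0 to 16.4 and 13 to 16.3 FPKM), had adjusted p values of 0.811 and 0.885. Within a library the ratio of Tbk1 to Ikbke was 0.250 ± 0.0596 in the flow-through against 0.405 ± 0.0356 in the enriched fraction, with no overlap. Ikbkg shares exonic sequence with G6pdx, and Ikbke with non-coding genes, on the opposite strand.

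Of the 5 NF-κB subunits, Nfkb1 and Rel passed the test, and all 5 had positive log2 fold changes on the unscaled values, which turned negative under T-cell scaling for Nfkb1, Rela and Relb. Nfkb1, the precursor of the DNA-binding partner of RelA and c-Rel, had 66.0, 76.9, 74.3 and 79.0 FPKM in the flow-through against 83.2, 93.4, 87.9 and 100.4 FPKM in the enriched libraries. It was the most abundant of the 5 subunits per transcript length in every library (0.30 ± 0.09, adjusted p = 0.0354). Rel, which encodes c-Rel, the subunit best known from activated lymphocytes, was the least abundant, at 3.21, 6.31, 4.84 and 6.08 FPKM against 6.82, 8.03, 8.44 and 8.86 FPKM. The fractions were apart (0.59 ± 0.18, adjusted p = 0.0391), by 0.508 FPKM at the narrowest, and the values remained apart within every mouse.

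Rela, the main activating subunit, was the flattest member of the group, at 48.7, 48.3, 51.1 and 50.3 FPKM against 49.99, 50.2, 51.1 and 51.1 FPKM (0.03 ± 0.06, adjusted p = 0.749). Nfkb2, the precursor used by the non-canonical branch, had 19.2, 26.7, 25.3 and 28.6 FPKM against 26.3, 36.7, 34.8 and 36.9 FPKM. It was higher in 4 of 4 mice and overlapped only through the enriched library of mouse 1 (0.42 ± 0.15, adjusted p = 0.0677 without and 0.00253 with the block). Relb, the partner of processed NF-κB2, had 14.0 to 23.8 and 20.6 to 25.4 FPKM (0.29 ± 0.15, adjusted p = 0.187 without and 0.0395 with the block). Exons of Nfkb2 overlap those of Psd on the opposite strand.

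Because the scale between libraries cancels in a share, the make-up of each group could be described without it. Of the summed FPKM of the 5 NF-κB subunits, Rela took 28.8% ± 2.52 in the flow-through against 24.5% ± 1.64 in the enriched fraction, lower in 4 of 4 mice and without overlap (26.8% to 32.3% against 23.0% to 26.8%, the nearest pair being 26.79% and 26.75%). Rel took 2.91% ± 0.616 and 3.87% ± 0.194, higher in 4 of 4 mice without overlap. Nfkb1 took 42.8% ± 0.745 and 44.0% ± 1.24 and Nfkb2 14.3% ± 1.13 and 16.2% ± 1.43, each higher in 4 of 4 mice but with overlapping values. In the IκB family the share of Nfkbia was 48.7% ± 2.65 and 39.1% ± 3.07, and that of Bcl3 10.1% ± 2.74 and 15.7% ± 0.948, with no overlap in either. These shares are descriptions without a test.

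**Figure D3:**
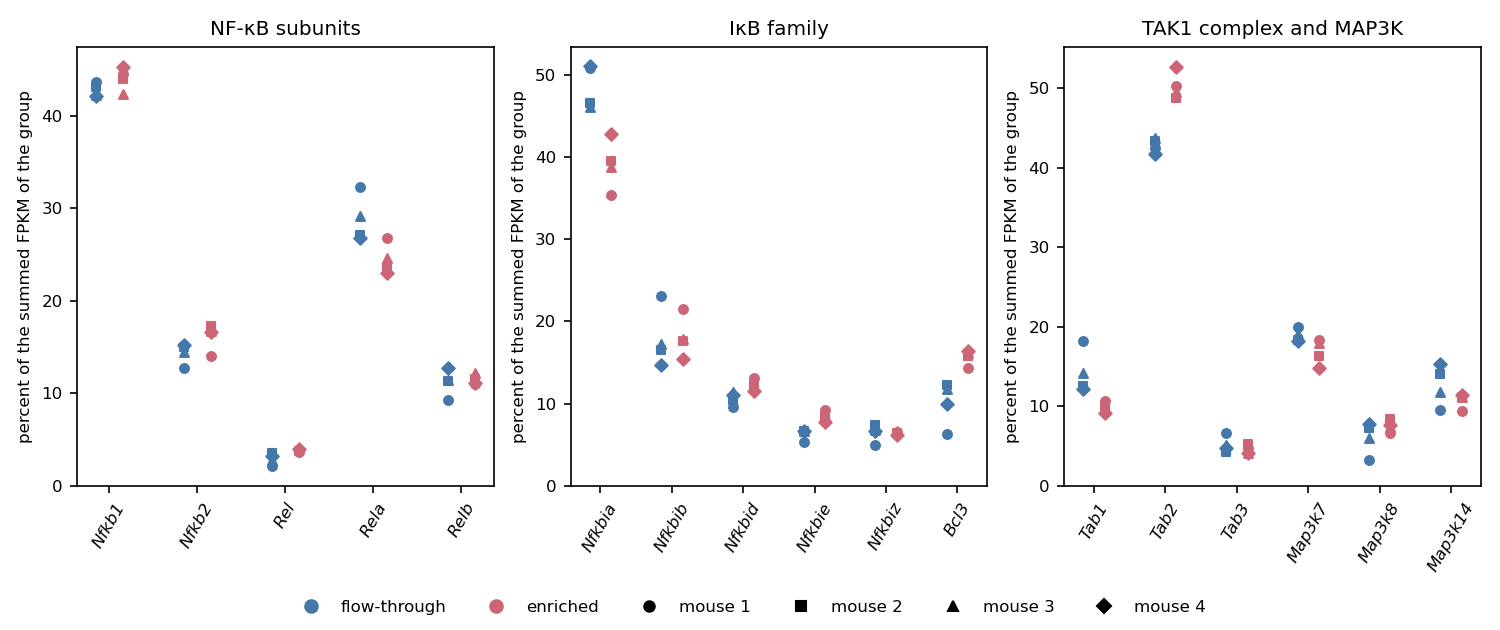
Percent of the summed FPKM of its group taken by each NF-κB subunit, IκB family gene and TAK1 complex or MAP3K gene, in each flow-through (blue) and enriched (red) library, with a marker shape per mouse. Rela (26.8% to 32.3% against 23.0% to 26.8%), Nfkbia (46.1% to 51.1% against 35.4% to 42.8%) and Tab1 (12.2% to 18.3% against 9.18% to 10.7%) take a smaller share in the enriched libraries, and Tab2, Bcl3, Nfkbie and Rel a larger one.

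The IκB family, which holds NF-κB in the cytoplasm or, for its nuclear members, tunes it on DNA, was uneven. Nfkbie (IκBε) was the only member called, with 9.14, 14.3, 12.9 and 17.0 FPKM in the flow-through against 18, 20.5, 18.7 and 20.8 FPKM in the enriched libraries. The fractions did not overlap, and the flow-through libraries were spread more widely than the enriched ones (0.54 ± 0.16, adjusted p = 0.0385). Bcl3, a nuclear member that works with the p50 and p52 homodimers, had 10.6, 26.3, 22.8 and 25.4 FPKM against 28, 39.0, 35.8 and 44.4 FPKM. It had the largest fold change of all members on the unscaled values and no overlap but missed the threshold (0.82 ± 0.27, adjusted p = 0.0555), and it passed with the block (adjusted p = 0.0034) and without the flow-through library of mouse 1 (0.53 ± 0.15, adjusted p = 0.0311). Nfkbid (IκBNS), a nuclear member that T cells need for IL-2 production, had 16.3 to 28.4 and 25.6 to 31.0 FPKM (0.36 ± 0.15, adjusted p = 0.112 without and 0.0204 with the block). Nfkbib (IκBβ) had 33.4 to 39.2 and 39.8 to 43.5 FPKM with no overlap (0.19 ± 0.07, adjusted p = 0.0787 without and 0.0491 with the block), and its exons overlap those of Sirt2 on the opposite strand.

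Nfkbia (IκBα), the inhibitor that NF-κB itself resynthesises within minutes to hours of activation, had 86.3, 99.8, 89.3 and 131 FPKM in the flow-through against 69.2, 97.5, 86.3 and 116 FPKM in the enriched libraries. Each mouse had a little less in its enriched fraction, and mouse 4 had the most in both (-0.14 ± 0.18, adjusted p = 0.578, and 0.142 with the block). Nfkbiz (IκBζ), the nuclear member induced by IL-1 and Toll-like receptors, had 8.32 to 17.0 and 12.9 to 16.6 FPKM (adjusted p = 0.532). The ratio of Nfkbie to Nfkbia within a library was 0.131 ± 0.0179 and 0.217 ± 0.0328, higher in 4 of 4 mice with no overlap.

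The brakes that act on ubiquitin chains held no called member, at 0 of 5 by limma with 1 of 5 (Cyld) at an unadjusted p under 0.05. Tnfaip3, which encodes A20, the ubiquitin-editing enzyme that ends NF-κB signaling, had 18.9, 34.4, 26.3 and 44.9 FPKM in the flow-through against 21.3, 36.2, 30.5 and 38.3 FPKM in the enriched libraries. The fractions overlapped throughout, and the mice were further apart than the fractions (0.05 ± 0.27, adjusted p = 0.897). Cyld, a deubiquitinase for the chains that TRAF6 builds, had 12.0, 18.8, 17.6 and 19.4 FPKM against 20.3, 22.7, 22.7 and 22.9 FPKM, with no overlap (0.39 ± 0.14, adjusted p = 0.0754 without and 0.018 with the block). Tnip1, a partner that carries A20 to ubiquitin, had 29.9 to 40.6 and 37.0 to 43.2 FPKM (0.21 ± 0.10, adjusted p = 0.164 without and 0.0488 with the block). Tnip2, its relative, had 4.90 to 6.61 and 5.70 to 7.11 FPKM (adjusted p = 0.373), and Otulin, which cuts linear ubiquitin, had 29.6 to 32.1 and 32.3 to 34.3 FPKM with no overlap (0.12 ± 0.06, adjusted p = 0.183).

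Of the genes that feed NF-κB from other receptors, Bcl10 rose. This scaffold between the antigen receptor and IKK had 25.6, 38.9, 31.7 and 36.2 FPKM in the flow-through against 48.7, 46.1, 44.5 and 50.6 FPKM in the enriched libraries. The fractions were separate, by 5.54 FPKM at the narrowest (0.52 ± 0.13, adjusted p = 0.0181), and the call was kept in 15 of 20 alternatives. Its enzyme partner Malt1 had 10.8, 18.7, 15.5 and 19.0 FPKM against 16.8, 18.6, 17.9 and 19.5 FPKM (0.20 ± 0.16, adjusted p = 0.375), and only the flow-through of mice 1 and 3 lay below the enriched range. The cIAP ubiquitin ligases, which work with TRAF2, did not pass: Birc2 had 20.7 to 26.7 and 20.8 to 26.0 FPKM (adjusted p = 0.498), and Birc3, a known NF-κB target, had 17.7 to 41.1 and 27.6 to 36.6 FPKM (adjusted p = 0.488).

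Many of these genes answer to NF-κB themselves, so their promoters were searched for the 10-base κB consensus on both strands, in windows of 250 bases before to 50 bases after the start (RefSeq, GRCm38.p6). Windows were at hand for 36 of 43 members, and 12 of them (33.3%) held a match, against 5.14% of 27025 genes with a window. Matches lay in 4 of 5 IκB family genes, 2 of 3 NF-κB subunits and 3 of 5 ubiquitin-editing genes, and in none of the IRAK or IKK genes with a window. Among members with a window, 4 of the 8 that rose (Bcl10, Nfkbie, Rel and Traf3) and 8 of the 27 that were not called had a match. Over all genes the shares were 8.39% of those that rose, 5.14% of those that fell and 5.87% of those not called. A match is a run of letters and not a measured binding site. The stretches below show the match in capitals, on the strand of the gene, for the members that rose and for Nfkbia and Tnfaip3, the classical feedback genes, which were not called. They end 20 bases from the match, or at the base before the start or the edge of the window where that is nearer.
Rel, chr11:23771031-23771081, minus strand: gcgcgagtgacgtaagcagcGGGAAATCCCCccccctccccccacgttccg
Nfkbie, chr17:45555574-45555623, plus strand: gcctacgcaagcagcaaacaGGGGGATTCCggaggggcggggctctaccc
Traf3, chr12:111166340-111166369, plus strand: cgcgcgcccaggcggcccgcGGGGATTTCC
Bcl10, chr3:145924012-145924050, plus strand: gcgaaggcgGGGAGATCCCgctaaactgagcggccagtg
Nfkbia, chr12:55492648-55492696, minus strand: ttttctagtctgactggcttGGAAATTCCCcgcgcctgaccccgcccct
Tnfaip3, upstream match, chr10:19015506-19015555, minus strand: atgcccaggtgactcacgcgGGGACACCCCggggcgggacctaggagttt
Tnfaip3, match at the start, chr10:19015411-19015442, minus strand: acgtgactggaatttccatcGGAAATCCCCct

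The matches began 92 bases before the start in Rel, 106 in Nfkbie, 10 in Traf3, 241 in Bcl10, 29 in Nfkbia, and 125 and 12 in Tnfaip3. These are RefSeq starts, and those of Bcl10 and Tnfaip3 lie inside the gene as GENCODE gives it. There Bcl10 begins at 145922804 (plus strand) and Tnfaip3 at 19015657 (minus strand), so these stretches are not upstream of the whole gene. In Rel the 11 capitals hold 2 overlapping matches. Nfkb2 also held matches near several of its starts, and further matches lay in Cyld, Map3k7, Nfkbid, Tnip1 and, after the start, in Bcl3. Genes with a match were found on both sides of the test, with Nfkbie (0.54) and Rel (0.59) beside Nfkbia (-0.14) and Map3k7 (0.00).

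Several inhibitors differed more between mice than between fractions, and others did not. Of the sum of squares of log2(FPKM + 1), the mouse took 94.9% for Tnfaip3, 87.7% for Nfkbia and 73% for Nfkbiz, and the fraction 0.486%, 7.57% and 9.29%. The fraction took more than the mouse for Nfkbie (60% and 29.6%), Nfkbib (67.0% and 22.7%), Bcl3 (52.2% and 40.9%) and Cyld (50.7% and 36.8%). For Myd88 the fraction took 86.1% and the mouse 10.3%, and for Tab2 88.9% and 10.6%. Over the members the median was 37.5% for the fraction and 47.2% for the mouse, beside 37.3% and 38.6% over all genes tested. The mouse took more than the fraction for 54.8% of members and 51.8% of all genes. There are more mice than fractions, so the mouse has more degrees of freedom in these sums. Noise alone would therefore give it the larger share. The 4 mice had the same order in both fractions for 13 of 42 members (31%), against 16.2% of all genes, and in 12 of the 13 the order from low to high was mouse 1, 3, 2 and 4. Those 12 were Ikbkg, Ikbke, Nfkb1, Nfkb2, Nfkbia, Nfkbid, Nfkbie, Nfkbiz, Tnfaip3, Tnip2, Cyld and Malt1.

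The same order appeared in early response genes that handling of cells can raise. Fos had 111, 183, 260 and 309 FPKM in the flow-through of mice 1, 3, 2 and 4 and 132, 188, 303 and 320 FPKM in their enriched libraries, and Fosb, Jun, Junb, Egr1, Dusp1, Zfp36, Btg2 and Nr4a1 ran in the same order in both fractions. In all, 9 of the 13 genes of that list did so. None of the 13 passed the test between the fractions by limma without the block (2 at an unadjusted p under 0.05), whereas with the mouse block 4 were higher (Fosb, Nr4a1, Btg2 and Atf3) and Jun was lower. Their summed level was 762 to 1815 FPKM in the flow-through against 919 to 1720 FPKM in the enriched libraries. Some marker genes of other cells ran in the same order in both fractions too, among them Ncr1 (NK cells), Foxp3 (regulatory T cells) and Cd4. Others did not, such as the myeloid genes Lyz2 and Mpo, which were highest in mouse 2 in both fractions. The part of any of these genes in the order of the pathway genes was not tested. What differed between the mice cannot be told from the labels.

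**Figure D4:**
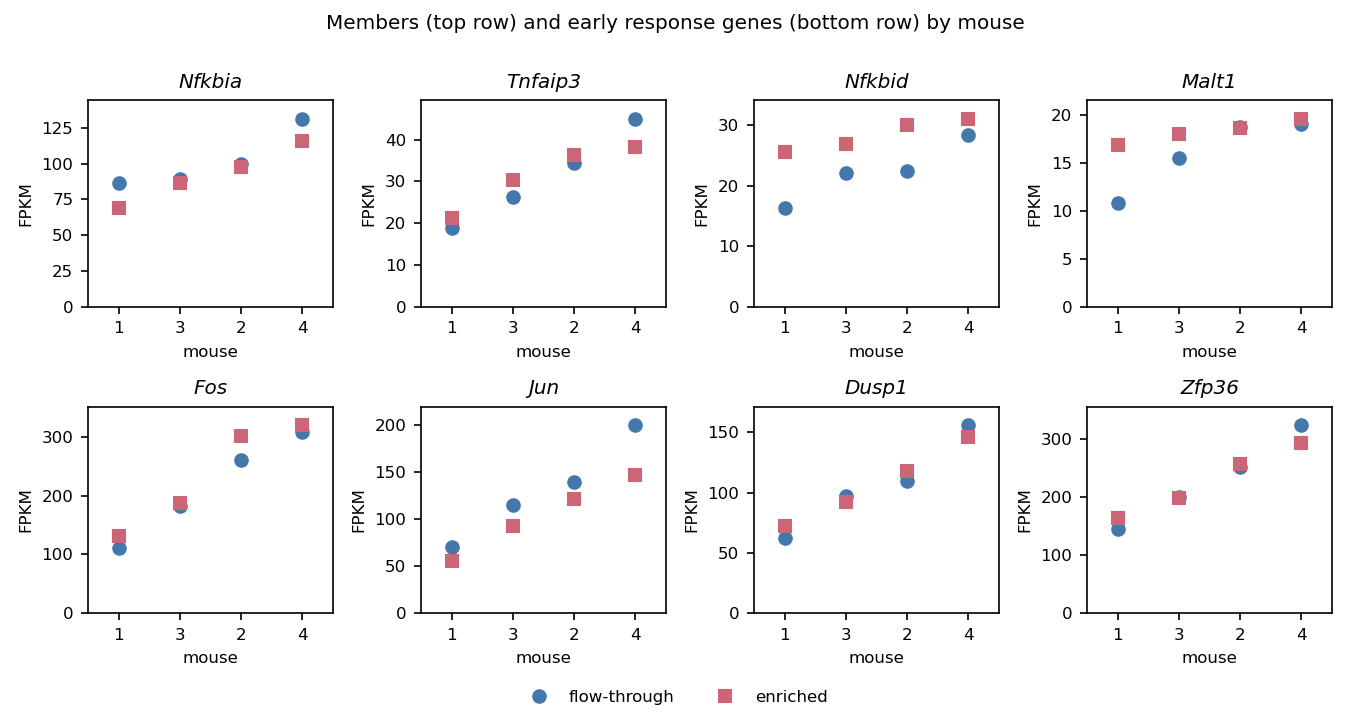
FPKM of 4 members (top row) and 4 early response genes (bottom row) in the flow-through (blue circles) and enriched (red squares) library of each mouse, with the mice set out in the order of Fos; axes start at 0. Each gene runs in that order in both fractions, and Nfkbia and Tnfaip3 differ more between mouse 1 and mouse 4 than between fractions.

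Genes on either side of the pathway were listed by role, chosen with earlier results of these data known. Their counts are therefore descriptions, and stand beside 14.1% of all genes higher and 13.7% lower. Of 12 receptor and ligand genes, 10 were tested, and 6 were higher and 1 lower, with a median log2 fold change of 0.97. That list holds Il18r1 (1.85), which the selection used. Its partner Il18rap, the signaling chain of the receptor, had 6.18 to 13.6 FPKM against 31.9 to 40.5 FPKM (1.71 ± 0.21, adjusted p = 0.00162), and Il1r2, the decoy receptor of IL-1, had 0.891 to 2.09 FPKM against 5.12 to 5.76 FPKM (1.42 ± 0.15, adjusted p = 0.000936). Il1rl1, the IL-33 receptor, fell from 8.29 ± 2.53 to 4.75 ± 0.495 FPKM (-0.65 ± 0.19, adjusted p = 0.0336). Of 8 TIR adaptor and Pellino genes, 6 were tested and Ticam1 (TRIF), an adaptor of Toll-like receptors, was called, from 6.13 ± 0.431 to 8.87 ± 0.129 FPKM (0.47 ± 0.08, adjusted p = 0.0039). Of 15 genes for ubiquitin chains and A20 partners, 14 were tested and Ripk1, the kinase at the TNF receptor, was called higher (0.27 ± 0.08, adjusted p = 0.0305), with a median of 0.05 for the list. Under T-cell scaling Ticam1 (0.16, adjusted p = 0.494) and Ripk1 (-0.06, adjusted p = 0.821) lost their calls, as did Il1rl1 (-0.96, adjusted p = 0.071), while Il18rap and Il1r2 kept theirs.

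In the MAP kinase branch, which TAK1 also feeds, 2 of 10 genes rose, beside 14.1% of all genes. Mapk11, a p38 kinase, went from 4.32 ± 1.27 to 10.4 ± 1.02 FPKM (1.13 ± 0.19, adjusted p = 0.00421), and Map2k3, a kinase that activates p38, from 40.1 ± 6.55 to 54.5 ± 4.54 FPKM (0.44 ± 0.12, adjusted p = 0.0255). Under T-cell scaling Mapk11 stayed higher and Map2k3 did not pass (0.10, adjusted p = 0.791). Of 13 genes for TNF-family receptors and the antigen receptor branch, none fell by limma at the same threshold or at an unadjusted p under 0.05. By limma 7 rose at either threshold, beside 14.1% (adjusted) and 20% (unadjusted) of all genes. Tnfrsf4 (OX40) led them, with 5.60, 8.68, 7.22 and 11.2 FPKM against 20.3, 28.7, 24.9 and 30.7 FPKM (1.59 ± 0.20, adjusted p = 0.00164). Every mouse had over 2 times as much in its enriched cells. Tnfrsf1b (TNFR2) rose by 1.00 ± 0.18 (adjusted p = 0.00591) and Tnfrsf13c, the BAFF receptor, by 0.93 ± 0.21 (adjusted p = 0.0139).

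Of 29 genes known as NF-κB targets, 16 rose and 3 fell, beside 14.1% and 13.7% of all genes. The median was 0.90. This list too was chosen with earlier results of these data known, so its counts are no test of NF-κB activity. Il2ra, the α chain of the IL-2 receptor, had 1.37, 4.16, 3.98 and 4.78 FPKM in the flow-through against 9.94, 16.3, 15.7 and 20.6 FPKM in the enriched libraries (1.90 ± 0.31, adjusted p = 0.00394). Bcl2a1d (1.64 ± 0.15, adjusted p = 0.000463) and Bcl2a1b (1.53 ± 0.17, adjusted p = 0.00115), survival genes of the BCL2 family, belong to near-identical copies whose reads the counting could split, so each value alone is uncertain. Myc, a driver of growth, had 96.4, 101, 107 and 106 FPKM against 38.0, 47, 43.4 and 40.3 FPKM (-1.26 ± 0.08, adjusted p = 0.0002), and was below the flow-through in every mouse. Sod2 (-0.52 ± 0.12, adjusted p = 0.0156) and Stat5a (-0.48 ± 0.10, adjusted p = 0.00908) also fell. Under T-cell scaling 11 of the 29 target genes stayed higher and Myc stayed lower. Sod2 and Stat5a lost their calls and 2 others became lower. Of the 13 receptor-input genes 4 stayed higher. Over all genes 4.46% were higher and 8.92% lower in that scaling. In the same libraries 8 of 10 dendritic-cell genes were higher and 1 (Ccr7, -1.27) lower, and 7 of 9 NK-cell genes were higher, among them H2-Ab1 (32.1 to 110 against 152 to 443 FPKM) and Ncr1 (0.623 to 2.68 against 7.33 to 27.1 FPKM), as was Foxp3 (1.12 to 4.40 against 5.86 to 19.0 FPKM), a marker of regulatory T cells. Their part in the target gene values was not tested.

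**Figure D5:**
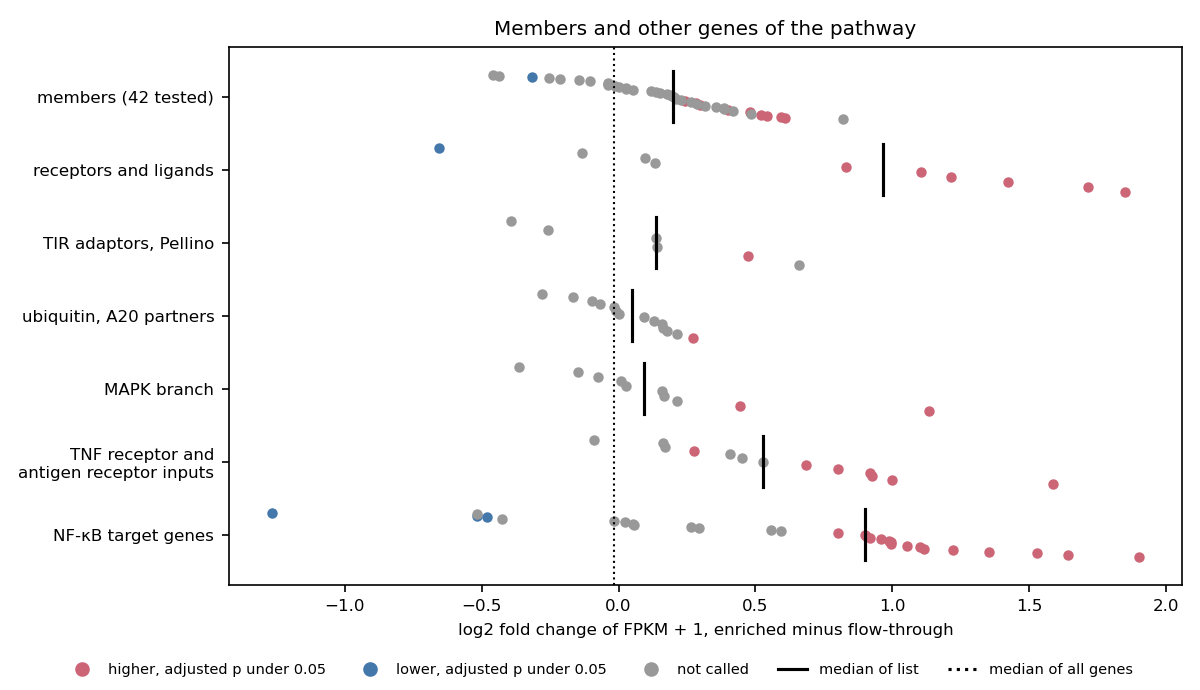
Log2 fold change of FPKM + 1 (enriched minus flow-through) of each tested gene in the member list and 6 lists of other pathway genes, with a bar at the list's median and a dotted line at the median of all 12166 genes (-0.02). The members lie between -0.46 and 0.82, within the span of the NF-κB target genes, which runs from -1.26 (Myc) to 1.90 (Il2ra).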

How the data were processed

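The deposited table holds FPKM per gene in 8 libraries, which the authors computed from paired-end reads of stranded poly(A) libraries. Low-quality reads were removed, the others were mapped to mm10 with TopHat, and gene levels were estimated with Cufflinks 2.1.1, with correction for multiply mapped reads and fragment bias and otherwise default options, which do not use strand. The annotation release is not given in the sources used here. FPKM carry no exact depth, so no count model or counting interval was used. Depth was estimated from the step between low values of genes with 1 transcript.

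Groups came from the sample labels. Fractions were compared with limma 3.58.1 in R 4.3.3 with a trend, on log2(FPKM + 1), without a block, over genes whose mean reached 1 FPKM, and p-values were adjusted by Benjamini-Hochberg over all 12166 genes at 0.05. Such fold changes understate those of low genes. The fit without a block was also run on simulated libraries with independent noise and no mouse effect, which cannot show how it behaves on paired libraries. The labels state that 4 mice gave both fractions, and libraries with the same number deviated together from their group means (correlation across genes 0.66, 0.589, 0.308 and 0.471). Libraries with different numbers reached 0.412 (flow-through of 2 with enriched of 4). That is below the same-number values of 2 and 4 but above that of 3. The libraries were therefore paired by number, which the labels do not state outright. P-values without the block set a difference against the spread among the 4 libraries of each fraction and leave the pairing out. Those with the mouse block set it against the spread of the differences within these 4 mice. Members, lists and tests were chosen with earlier results of these data known. Named genes were every member and, per list, up to 3 genes in each direction with the largest fold change among those called with at least 5 FPKM in the higher fraction. For Map2k7 and Itgam, whose names occur at more than 1 entry, the entry of highest mean was used. Coordinates came from GENCODE M21 (mm10), which held 98.9% of the identifiers, and promoters from RefSeq. Alternatives were another pseudocount (0.1), other filters (5 FPKM or none), the mouse block, 3 scalings, limma without the trend, and leaving out each library or each mouse.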

Additional observations from a re-analysis of the deposited data

Results flagged for a closer look

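In 90 groups of 4 libraries (43 members, Il18r1 and Il18rap in 2 fractions), 4 held a library further from the others than Dixon's 95% limit, and chance gives about 4.5. All 4 were libraries of mouse 1. Traf5 had 22.2 FPKM in the flow-through of mouse 1 and 33.3 to 35.3 FPKM in the others. Birc2 had 20.7 FPKM in the same library and 26.6 to 26.7 FPKM in the others. In the enriched library of mouse 1, Map3k14 had 10.3 FPKM beside 13.2 to 13.4 FPKM, and Cyld had 20.3 FPKM beside 22.7 to 22.9 FPKM.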

How the results depend on the processing

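The calls of the members depend on the scale and on which mice are included. Of the 10 called members, Myd88 kept its call in 19 of 20 alternatives, Tab2 in 18, Traf5 in 16, Bcl10 in 15, Rel in 11, Nfkb1 and Nfkbie in 10, Traf3 and Tab1 in 7 and Tbk1 in 5. Another pseudocount, a filter at 5 FPKM and upper quartile scaling kept all 10. Without a filter on low values, where 22789 genes were tested, 5 members were higher and 0 lower, beside 7.32% and 5.63% of all genes. With quantile normalization 9 were higher and 0 lower, beside 14.4% and 13.6% of all genes. With the replicate block, 18 members were higher and 5 lower, and 2705 and 2763 of all genes. Under T-cell scaling 0 members were higher and 2 lower, and 542 and 1085 of all genes. Leaving out 1 library or 1 mouse gave 1 to 12 members higher and 0 to 3 lower, and 447 to 1813 of all genes higher and 292 to 1780 lower. Without mouse 3, 1 member (Myd88) was called, beside 3.67% of all genes higher and 2.4% lower. Without mouse 4, 2 members (Myd88 and Tab2) were called, beside 7.03% and 5.08% of all genes. Without mouse 2, 4 members were called, beside 9.06% and 8.14%. Without mouse 1, 12 members were higher and 3 lower, beside 14.8% and 12.7%. Leaving out the flow-through library of mouse 3 left 3 members higher, beside 9.61% of all genes. Leaving out the enriched library of mouse 2, 3 or 4 left 4, 4 and 2 members higher, beside 9.19%, 9.8% and 9.13% of all genes. Il18r1 was called in every alternative, at 1.71 to 1.97 when libraries or mice were left out and 1.51 under T-cell scaling.

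T-cell scaling turned the sign of Irak4 (-0.053), Traf1 (-0.19), Traf2 (-0.15), Traf3 (-0.040), Map3k7 (-0.33), Ikbkg (-0.30), Tbk1 (-0.086), Nfkb1 (-0.046), Rela (-0.31), Relb (-0.042), Nfkbib (-0.15), Nfkbiz (-0.14), Tnfaip3 (-0.28), Tnip1 (-0.13), Tnip2 (-0.16), Otulin (-0.22), Birc3 (-0.10) and Malt1 (-0.12), and upper quartile scaling that of Tab3 (0.0039). Leaving out libraries or mice turned the sign of members that were not called, with ranges of -0.026 to 0.25 for Traf1, -0.16 to 0.063 for Tab3, -0.0357 to 0.075 for Map3k7, -0.20 to 0.091 for Map3k14, -0.060 to 0.082 for Ikbkg, -0.10 to 0.031 for Chuk, -0.022 to 0.29 for Nfkbiz and -0.15 to 0.25 for Tnfaip3. T-cell scaling lowered the log2 fold change of every member, and the median of all genes moved from -0.02 to -0.33. The cause of the changes on leaving out libraries or mice was not tested. Fewer libraries leave fewer degrees of freedom, and FPKM without counts give no interval for the low levels of Irak3, Rel and Irak1bp1.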
